A study of Mus musculus with 16 samples.

Results

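Cpn1, Prkx, Slc14a1 and Mmd are 4 genes whose mRNA signal in CT26 cells carrying both hairpins lay far from that in cells with the empty vector. They were picked for that reason, because their change against control was among the largest or was seen only in shTR1/shSep15 cells, so all their values across the lines are a description and carry no test. The array holds 10 probe sets (groups of short probes read together as 1 signal) that carry 1 of these 4 symbols and no other, out of 45037 probe sets and 18193 genes with a probe set of their own. CT26 is a transplantable colon carcinoma line of BALB/c mice. The groups were shTR1/shSep15 cells, which carried a hairpin against TR1 and a hairpin against Sep15, shSep15 cells and shTR1 cells, which carried 1 hairpin each, and control cells, which carried the empty pU6-m3 vector. All 4 lines were made by stable transfection and grown under hygromycin selection, and each was measured on 4 Affymetrix arrays of different mRNA preparations. The study worked with several independent clones, and its text does not say whether the preparations of a line came from 1 clone or from several, nor whether they came from separate cultures. The p-values below therefore measure the spread between these preparations.

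The 4 genes have unrelated tasks. Cpn1 encodes the catalytic subunit of carboxypeptidase N, a zinc enzyme that the liver secretes into plasma and that trims the basic residue from the end of kinins and of the complement anaphylatoxins. Prkx encodes a serine/threonine kinase closely related to the catalytic subunits of cAMP-dependent protein kinase, is X-linked, and is held inactive by regulatory subunits until cAMP releases it. Slc14a1 encodes urea transporter B, a membrane channel for urea found in red blood cells and in the descending vasa recta of the kidney, which in humans carries the Kidd blood group. Mmd encodes a membrane protein of the progestin and adipoQ receptor family that was named for its appearance as monocytes mature into macrophages. Sep15 (gene Selenof) is a selenoprotein of the endoplasmic reticulum, and TR1 (gene Txnrd1) is the cytosolic thioredoxin reductase.

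The hairpins are shown because they define the 4 lines. Their target sequences, 5′ to 3′ as the submitters gave them, were 19 nucleotides for Sep15 and 22 nucleotides for TR1.
Sep15 (Selenof, chromosome 3): acagaagagttccatttaa
TR1 (Txnrd1, chromosome 10): atcgctctgacaagcttattag

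Promoter windows are shown for the 2 of the 4 genes that matched the RefSeq promoter table (assembly GRCm38.p6), Cpn1 and Mmd, since these genes were both higher in shTR1/shSep15 cells. Prkx and Slc14a1 had no entry. Each window spans 300 bases around the annotated start, on the strand of the gene, and capitals mark the motif matches.
Cpn1 (chr19:43986471-43986770, minus strand): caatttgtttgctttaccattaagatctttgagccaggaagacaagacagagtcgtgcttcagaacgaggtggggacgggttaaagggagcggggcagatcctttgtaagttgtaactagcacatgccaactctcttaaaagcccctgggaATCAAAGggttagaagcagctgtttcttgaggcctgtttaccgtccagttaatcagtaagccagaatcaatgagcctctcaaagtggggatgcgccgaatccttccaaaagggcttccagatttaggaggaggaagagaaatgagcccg
Mmd (chr11:90249226-90249525, plus strand): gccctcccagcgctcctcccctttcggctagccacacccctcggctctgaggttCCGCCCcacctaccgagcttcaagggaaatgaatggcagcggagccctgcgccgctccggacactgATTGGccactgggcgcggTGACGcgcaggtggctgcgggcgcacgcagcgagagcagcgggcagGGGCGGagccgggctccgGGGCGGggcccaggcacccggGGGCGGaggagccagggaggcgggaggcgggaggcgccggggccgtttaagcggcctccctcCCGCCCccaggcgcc

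The 8 motifs searched, on both strands, were the TATA box (TATAAA), the CCAAT box (CCAAT), the GC box (GGGCGG), the core of the cAMP response element (TGACG), the AP-1 site (TGANTCA), the core of the antioxidant response element (TGACNNNGC), the TCF/LEF site (ATCAAAG) and the core of the interferon-stimulated response element (GAAANNGAA). In the Cpn1 window the TCF/LEF letters occurred 1 time, 99 bases before the start, and they occur in 3.73% of all 32851 windows of this length. The Mmd window held the GC box 5 times, the CCAAT box 1 time and the cAMP response element core 1 time, against shares of 35.7%, 37.4% and 20.8% of all windows with at least 1 match. The TATA box (13.6% of windows), the AP-1 site (7.81%), the antioxidant core (12.4%) and the interferon core (8.56%) had no match in either window. None of the matches overlapped, and no match is shown here to be a site in use. The windows differ in composition, with 75.7% G and C and 32 CG dinucleotides for Mmd, 48.0% and 8 for Cpn1, and a median of 52.7% and 7 over all windows.

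Values are log2 signals, so a difference of 1 is a 2-fold change, and each gene is represented by its probe set with the highest mean over the 16 arrays. The median signal of an array lay between 4.45 and 4.58 and its upper quartile between 6.35 and 6.76. The algorithm gives no detection call, so a gene near the median may be at background, which was not tested. Selenof lay at 7.34 to 7.86 in shTR1/shSep15 cells, 8.02 to 8.29 in shSep15 cells, 11.57 to 12.36 in shTR1 cells and 10.78 to 11.57 in control cells. Txnrd1 lay at 7.18 to 7.91 in shTR1/shSep15 cells and 9.54 to 10.62 in shSep15 cells, and control cells had 9.45 to 10.39. In the arrays labelled shTR1 it was low in replicates 1 and 3, at 7.85 and 7.89. It was not low in replicates 2 and 4, at 10.57 (above the control range) and 9.71 (within it). What replicates 2 and 4 hold cannot be told from these values, so shTR1 values are given for every array and, where it matters, without these 2. Of the 10 epithelial markers 2 had a mean above 6 over the 16 arrays, and the means ran from 2.51 (Cdh1) to 7.45 (Krt20). Of the 8 mesenchymal markers 5 had a mean above 6, and the means ran from 3.76 (Thy1) to 12.85 (Vim).

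Cpn1 was higher in shTR1/shSep15 cells alone. At probe set 1417745_at its signal was 6.37, 6.18, 6.48 and 5.79 in the 4 shTR1/shSep15 arrays. It was 4.70, 4.41, 4.05 and 4.05 in shSep15 cells, 4.62, 4.79, 4.04 and 4.18 in shTR1 cells, and 3.86, 4.38, 4.54 and 4.68 in control cells. All 4 shTR1/shSep15 arrays lay above all 12 others, the lowest of them 1.11 above the highest control array, whereas the arrays of the other 3 lines overlapped one another. The mean was 6.20 ± 0.30 in shTR1/shSep15 cells and 4.37 ± 0.36 in control cells (SD, n = 4 each), a log2 difference of 1.84 (3.57-fold), the 17th highest of all probe sets. The means of shSep15 cells (4.30 ± 0.32) and shTR1 cells (4.41 ± 0.36) lay within 0.07 of control, so the order below shTR1/shSep15 cells is not resolved. The difference of shTR1/shSep15 cells was 1.90 from shSep15 cells and 1.80 from shTR1 cells. The other probe set of Cpn1, 1440576_at, did not show this: it read 3.97 ± 0.07 in shTR1/shSep15 cells, 3.94 ± 0.04 in shSep15 cells, 3.80 ± 0.06 in shTR1 cells and 4.07 ± 0.32 in control cells (SD, n = 4 each). The 2 probe sets correlated at r = 0.06 over the 16 arrays, and the pattern of Cpn1 rests on 1 of them.

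Prkx was the 1 gene of the 4 that was lower in shTR1/shSep15 cells. At 1424286_at it read 5.70, 5.07, 5.55 and 5.45 in shTR1/shSep15 cells. The shSep15 arrays were at 7.94, 7.80, 7.84 and 7.71, the shTR1 arrays at 6.98, 7.46, 6.47 and 7.73, and the control arrays at 7.21, 8.20, 7.53 and 6.93. The 4 shTR1/shSep15 arrays were the lowest of the 16, with a gap of 1.23 to the lowest control array. The mean of 5.44 ± 0.27 in shTR1/shSep15 cells against 7.47 ± 0.55 in control cells (SD, n = 4 each) gave a log2 difference of −2.03 (4.07-fold lower), the 27th lowest of all probe sets. shSep15 cells averaged 7.82 ± 0.10 and shTR1 cells 7.16 ± 0.55, and neither line separated from control, with differences of 0.35 and −0.31. Against the single knockdowns, shTR1/shSep15 cells were lower by 2.38 (shSep15) and 1.72 (shTR1) on the log2 scale. The arrays labelled shTR1 in which Txnrd1 was low, replicates 1 and 3, were also the lower ones for Prkx, and with these alone the shTR1 difference from control was −0.74. All 3 probe sets of Prkx had the same direction, at −1.24 (2.36-fold lower) for 1451299_at and −0.90 (1.87-fold lower) for 1424287_at, and correlated with one another at r = 0.78 to 0.96. At 1451299_at the shTR1/shSep15 arrays lay close together, between 5.92 and 5.98, while control arrays spanned 6.66 to 8.06.

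Slc14a1 had the largest difference of the 4 genes and was also high in part of the shTR1 arrays. At 1428114_at it read 7.27, 7.32, 7.68 and 7.96 in shTR1/shSep15 cells. It read 4.47, 4.42, 4.74 and 5.04 in shSep15 cells, 7.94, 7.41, 4.82 and 4.05 in shTR1 cells, and 4.74, 4.68, 4.69 and 4.58 in control cells. shTR1 replicates 1 and 2 thus reached the shTR1/shSep15 range (mean 7.67), whereas replicates 3 and 4 lay near control (mean 4.43). This division is not that of Txnrd1, which was not low in replicates 2 and 4. The mean was 7.56 ± 0.33 in shTR1/shSep15 cells and 4.67 ± 0.07 in control cells (SD, n = 4 each), a log2 difference of 2.88 (7.38-fold) and the 3rd highest of all probe sets. The shTR1 mean of 6.05 ± 1.91 stood 1.38 above control, and it overlapped both control and shTR1/shSep15 cells. Leaving out shTR1 replicate 1 or replicate 4 moved this difference to 0.75 or 2.05, so that 1 array decides its size. shSep15 cells averaged 4.66 ± 0.28, a difference of −0.01 from control, and lay 2.89 below shTR1/shSep15 cells. The dimmer probe set 1448640_at followed the same course (r = 0.96), with 4.82, 4.86, 4.87 and 5.42 in shTR1/shSep15 cells, 4.58, 4.84, 3.34 and 3.08 in shTR1 cells, and 2.99 to 3.29 in control cells. Its difference between shTR1/shSep15 and control cells was 1.86 (3.63-fold).

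Mmd was read with little spread in shTR1/shSep15 cells, at 10.99, 11.04, 11.04 and 10.99 at probe set 1423488_at. Its signal was 9.47, 8.99, 9.11 and 9.29 in shSep15 cells, 9.75, 10.79, 10.38 and 9.43 in shTR1 cells, and 9.96, 8.14, 9.03 and 9.92 in control cells. At this probe set the shTR1/shSep15 arrays were the highest of the 16, 1.02 above the highest control array and 0.19 above the highest shTR1 array. The mean was 11.01 ± 0.03 in shTR1/shSep15 cells and 9.26 ± 0.86 in control cells (SD, n = 4 each), a log2 difference of 1.75 (3.36-fold). Without control replicate 2, the lowest array, the difference was 1.38. shTR1 cells averaged 10.09 ± 0.62, 0.82 above control, with 2 arrays above all controls and 2 within their range. shSep15 cells averaged 9.22 ± 0.21 and differed from control by −0.05. The other probe sets of Mmd gave 2.20 (4.61-fold) at 1435645_at and 1.58 (2.99-fold) at 1423489_at for shTR1/shSep15 against control, and 0.98 and 0.95 for shTR1 against control. There the SD of shTR1/shSep15 cells was 0.25 and 0.20, and their arrays overlapped those of shTR1 cells. shTR1 replicate 2 read 10.70 at 1435645_at, against 10.32 to 10.82 in shTR1/shSep15 cells. At 1423489_at it read 9.99, above all shTR1/shSep15 arrays (9.52 to 9.89). Txnrd1 was not low in this replicate. Replicates 1 and 3, where Txnrd1 was low, read 8.74 and 9.97 at 1435645_at, and 8.65 and 9.28 at 1423489_at. These values, and those of replicate 4, lay below every shTR1/shSep15 array.

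**Figure D1:**
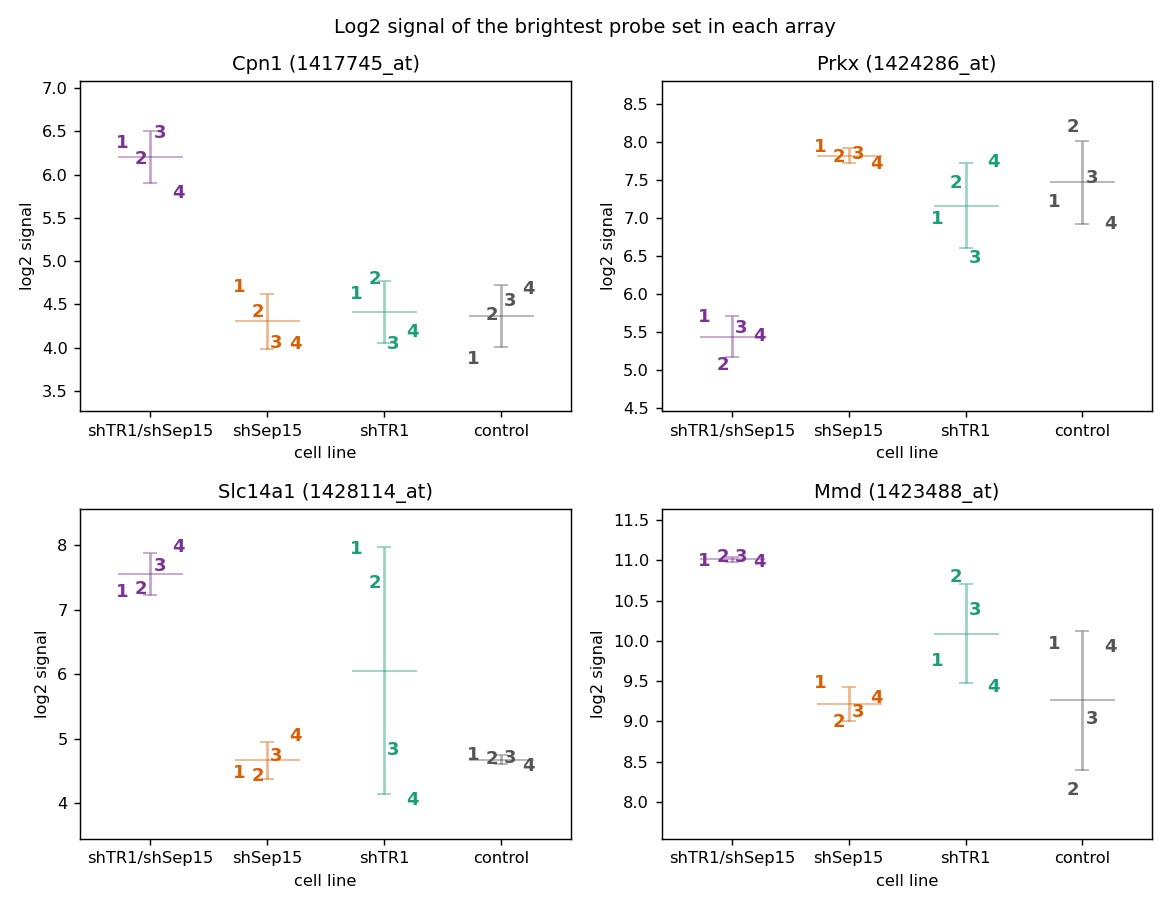
Log2 signal (vertical axis) of the brightest probe set of each gene in the 4 lines. Each digit is 1 of the 4 arrays of a line, the long horizontal stroke marks their mean, and the error bar spans 1 SD to each side. The shTR1/shSep15 arrays stand apart from control for all 4 genes, and shTR1 replicates 1 and 2 of Slc14a1 lie at 7.94 and 7.41.

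Across the 10 probe sets, the shTR1/shSep15 arrays did not overlap the control arrays in 9, the exception being 1440576_at of Cpn1. Of all probe sets 4.93% were without overlap in this comparison and 0.0244% passed the limma test (adjusted p under 0.05), and since the genes were picked on this contrast nothing is read from their count. In shSep15 against control and in shTR1 against control, none of the 10 was free of overlap, against 6.42% and 4.22% of all probe sets. Between shTR1/shSep15 and shSep15 cells the same 9 did not overlap (14.6% of all probe sets). Between shTR1/shSep15 and shTR1 cells 5 of the 10 did not (8.08%), namely both probe sets of Cpn1, 1424286_at and 1451299_at of Prkx, and 1423488_at of Mmd. This count uses all 4 shTR1 arrays. Replicates 1 and 3 alone also lay outside the shTR1/shSep15 range at 1448640_at of Slc14a1 and at 1435645_at and 1423489_at of Mmd. The share of all probe sets was not computed for these arrays alone, so nothing is read from it. These comparisons share the shTR1/shSep15 or the control arrays and are not independent of one another. For the 4 brightest probe sets, the shTR1/shSep15 difference exceeded the sum of the 2 single differences by 1.86 for Cpn1, 1.51 for Slc14a1 and 0.97 for Mmd, and fell short of it for Prkx, by −2.08, all on the log2 scale. These sums use all 4 shTR1 arrays. With shTR1 replicates 1 and 3 alone, the shTR1 difference from control was −0.04 for Cpn1, 1.70 for Slc14a1, 0.80 for Mmd and −0.74 for Prkx. The departure from the sum is then smaller for Slc14a1 and Prkx.

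**Figure D2:**
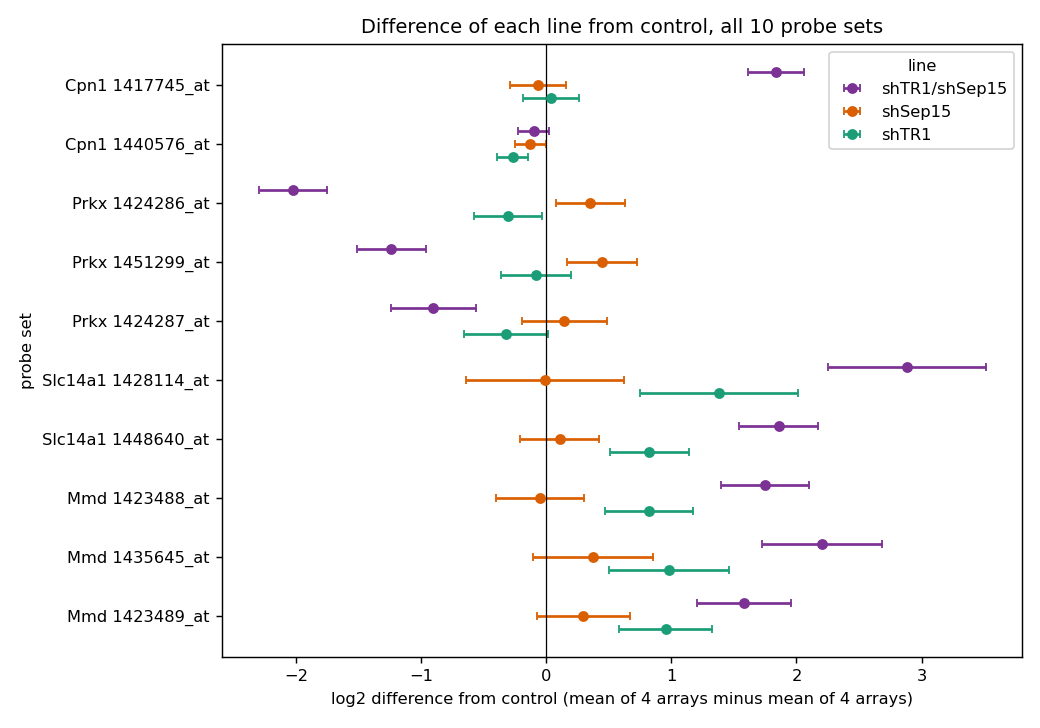
Log2 difference from control (horizontal axis) at each of the 10 probe sets for shTR1/shSep15, shSep15 and shTR1 cells, 4 arrays a line. Bars are the standard error of the limma fit, and 1440576_at of Cpn1 lies at −0.10 for shTR1/shSep15 cells where 1417745_at lies at 1.84.

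Over the 16 arrays the brightest probe sets of the 4 genes went together. Pearson's r was 0.76 for Cpn1 with Slc14a1, 0.72 for Cpn1 with Mmd and 0.75 for Slc14a1 with Mmd, and Prkx ran opposite to each, at −0.83 with Cpn1, −0.73 with Slc14a1 and −0.87 with Mmd. These values describe 16 arrays of 4 lines, and the genes were chosen because they differed between these lines. After the mean of each line was taken off, r lay between −0.04 and 0.35 for 5 of the 6 pairs. For Prkx and Mmd it was −0.62, and control replicate 2 had both the highest Prkx and the lowest Mmd signal of all arrays.

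The genes most like each of the 4 were ranked by Pearson's r over the same 16 arrays among 18192 other genes, and their values too are descriptions. For Cpn1 they were Igsf11 (r = 0.87), a cell adhesion protein, Mrpl54 (0.86), a protein of the mitochondrial ribosome, and Nudt8 (0.85), a hydrolase of the Nudix family. Igsf11 averaged 5.50 ± 0.36 in shTR1/shSep15 cells and 4.07 ± 0.13 in control cells (SD, 4 arrays each), a difference of 1.44. For Prkx they were Mef2a (0.91), a MADS-box transcription factor, Ythdf1 (0.90), a reader of methylated adenosine in mRNA, and Il6st (0.90), the gp130 receptor chain of interleukin-6 family cytokines. Mef2a was 1.56 lower in shTR1/shSep15 cells than in control cells, Ythdf1 0.82 lower and Il6st 1.03 lower on the log2 scale. For Mmd they were Eml1 (0.96), a microtubule-associated protein, Anapc15 (0.94), a subunit of the anaphase-promoting complex, and Slc16a13 (0.94), a monocarboxylate transporter. Slc16a13 was 1.24 higher in shTR1/shSep15 cells, Anapc15 0.88 and Eml1 0.83, and all 3 had their lowest signal in control replicate 2, as Mmd did.

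For Slc14a1 the closest genes were Thbs2 (r = 0.94), which encodes the matrix protein thrombospondin 2, Ces1f (0.93), a carboxylesterase, and Btc (0.91), which encodes betacellulin, a ligand of the EGF receptor. Since they were ranked on these arrays, a likeness in the shTR1 arrays is part of the choice. Thbs2 read 9.16 and 8.12 in shTR1 replicates 1 and 2 and 6.29 and 6.11 in replicates 3 and 4. Btc read 7.17 in shTR1 replicate 1 and 5.67, 5.07 and 4.99 in the other 3, below every shTR1/shSep15 array (6.16 to 7.49). In shTR1/shSep15 cells Thbs2 stood 2.06 above control and Btc 2.44. Genes with r above 0.9 numbered 16 for Mmd, 4 for Slc14a1, 2 for Prkx and 0 for Cpn1.

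**Figure D3:**
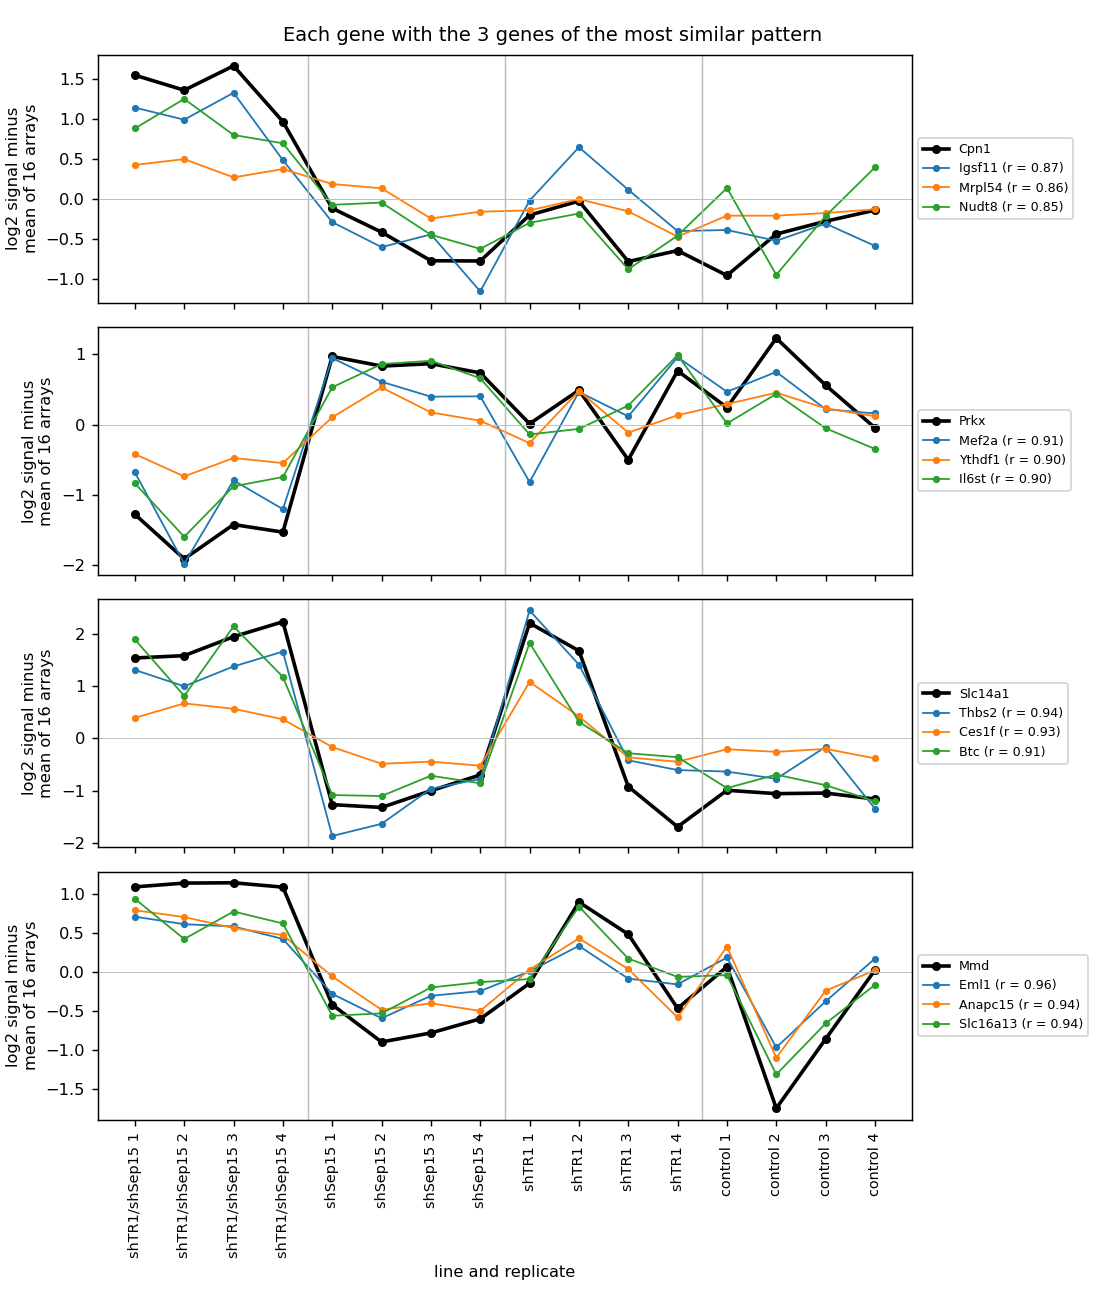
Each gene (black) with its 3 most similar genes over the 16 arrays. The vertical axis is the log2 signal minus the gene's mean over the 16 arrays and the horizontal axis lists line and replicate. Slc14a1 in shTR1 replicates 1 and 2 is as high as in the shTR1/shSep15 arrays, and Mmd is lowest in control replicate 2.

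The genes next to the 4 on their chromosomes were measured to see whether whole neighbourhoods moved, with 5 protein-coding genes on each side by the gene order of GRCm38.p6 (Cpn1 on chromosome 19, Prkx on X, Slc14a1 on 18, Mmd on 11). In shTR1/shSep15 against control none of the 40 passed, beside 0.0244% of all probe sets, and before adjustment the threshold was passed by 1 upward and 1 downward (8.14% of all probe sets in either direction). The median difference of the 40 was 0.00 and that of all probe sets −0.01. Most neighbours of Prkx and of Mmd had means below the median signal of an array in all 4 lines. Cldn34d beside Prkx, for example, averaged 2.50 in shTR1/shSep15 cells and 2.47 in control cells. A shift of such genes could go unseen. By start coordinate the neighbours lay 46 kb (Slc14a2) to 2247 kb (Vbp1) from their gene, so some were far off. Slc14a2, the kidney urea transporter A gene that lies directly beside Slc14a1, read 5.09, 5.70, 4.98 and 5.15 in shTR1/shSep15 cells and 5.02, 5.47, 5.41 and 5.52 in control cells, a difference of −0.12 (adjusted p = 0.902 from limma). In shSep15 against control (1.97% of all probe sets) 1 neighbour passed, Trim25 near Mmd, an interferon-inducible ubiquitin ligase. It rose to 10.25 ± 0.45 in shSep15 cells, against 8.55 ± 0.19 in control cells (SD, 4 arrays each), by 1.70 (adjusted p = 0.00628 from limma). Trim25 was also higher in the shTR1 arrays (9.01 to 10.40) than in all control arrays (8.30 to 8.77). It read 9.22 and 9.01 in shTR1 replicates 1 and 3, where Txnrd1 was low. In replicates 2 and 4, where Txnrd1 was not low, it read 10.03 and 10.40. With all 4 shTR1 arrays the difference from control was 1.11, which did not pass (adjusted p = 0.138 from limma). Nor did the difference of −1.27 of shTR1/shSep15 from shTR1 cells (adjusted p = 0.12 from limma). In shTR1/shSep15 against shSep15 cells (2.66%) Trim25 fell to 8.39 ± 0.28 in shTR1/shSep15 cells, a change of −1.86 that limma gave an adjusted p of 0.0029. Dgke, a diacylglycerol kinase next to it, fell as well (−0.80, adjusted p = 0.0494 from limma), a call that ended under 16 of 24 alternatives. None passed in shTR1 against control (0.18%) or in shTR1/shSep15 against shTR1 (0.0733%), where 5 and 5 of the 40 were past the threshold before adjustment, beside 11.8% and 10.4% of all probe sets.

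**Figure D4:**
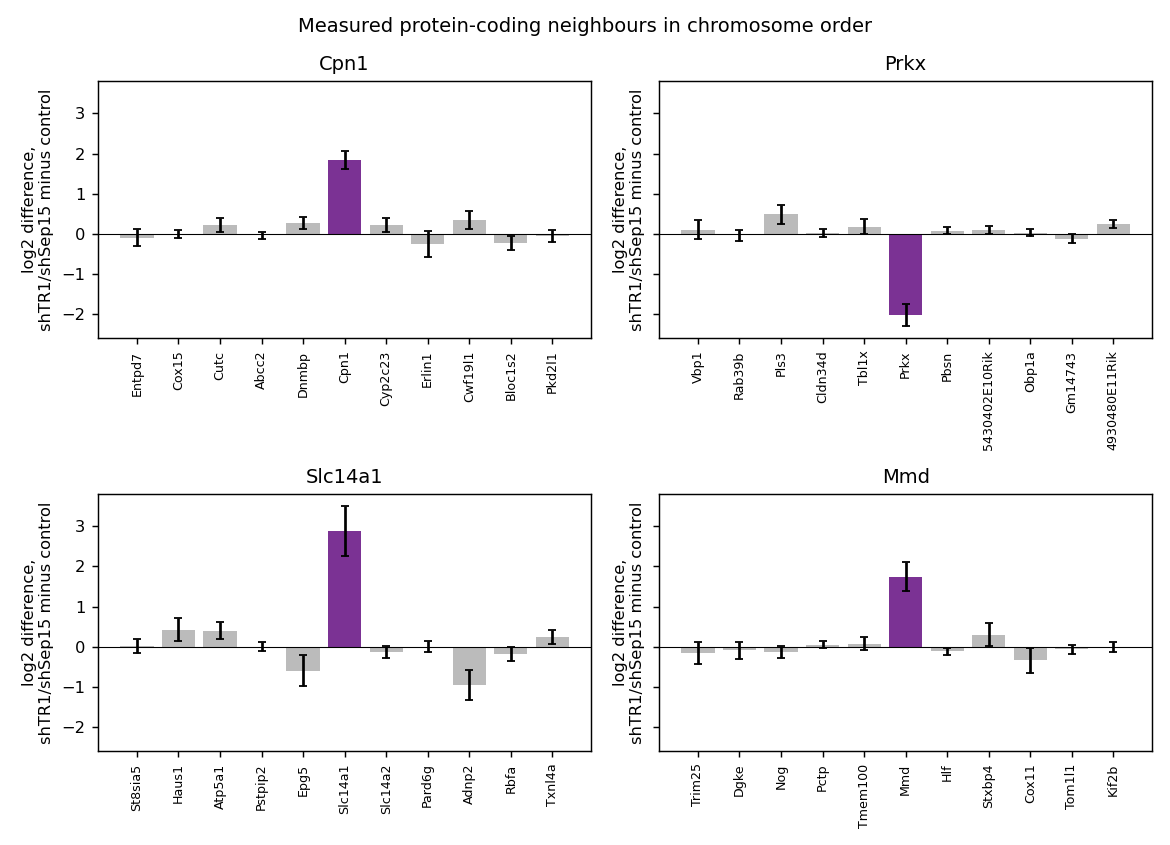
Log2 difference of shTR1/shSep15 from control (vertical axis, bars with the standard error of limma) for the 5 measured genes on each side of Cpn1, Prkx, Slc14a1 and Mmd, in chromosome order. The 4 genes are in purple at 1.84, −2.03, 2.88 and 1.75, and none of the 40 grey bars passed the test.

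Genes of the same pathways were counted from 5 lists. In shTR1/shSep15 against control no gene of any list passed the limma test, and none was past 0.05 before adjustment either, where 8.14% of all probe sets were. Of the 10 genes listed for Cpn1, its partner subunit Cpn2 and related metallocarboxypeptidases, 9 were measured, with a median difference of −0.015. Cpn2, the subunit that stabilises carboxypeptidase N, read 4.31 ± 0.08 in shTR1/shSep15 cells and 4.50 ± 0.30 in control cells (SD, 4 arrays each). The largest difference was that of Cpd, a carboxypeptidase of the trans-Golgi network, at 0.66 (adjusted p = 0.75 from limma), followed by Cpe, the prohormone-processing enzyme, at 0.33 (0.844). Without control replicate 2 they were at 0.37 and 0.015. The 11 measured of 14 genes of the kinin and anaphylatoxin system had a median of −0.09. Their largest differences were those of the 2 bradykinin receptors, −0.52 for Bdkrb2 (adjusted p = 0.856 from limma) and −0.20 for Bdkrb1 (0.712), and without control replicate 2 that of Bdkrb2 was 0.20.

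Of the 9 subunits and inhibitors of cAMP-dependent protein kinase, 8 were higher and 1 lower in shTR1/shSep15 cells than in control cells, with a median of 0.29, and none passed, where 47.9% of all probe sets were higher. Prkar2b, a regulatory subunit, was at 8.32, 7.92, 8.48 and 8.19 in shTR1/shSep15 cells and at 8.96, 5.34, 5.65 and 8.13 in control cells. Its difference of 1.21 (adjusted p = 0.696 from limma) ran from 0.65 (without control replicate 2) to 1.85 (without control replicate 1) as single arrays were left out. Prkacb, a catalytic subunit, had a difference of 0.55 (adjusted p = 0.747 from limma), and of 0.29 without control replicate 2. In shSep15 cells Prkacb rose, to 8.91, 8.84, 8.93 and 8.89, against 7.49, 6.21, 6.87 and 7.37 in control cells, by 1.90 (adjusted p = 0.011 from limma, 0.0018 to 0.0403 as single arrays were left out). It was the 1 gene of all 5 lists that passed in shSep15 against control, where 1.97% of all probe sets did, and a single call is near that share.

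The 9 genes of urea and glycerol transport and of arginases had a median difference of 0.02 between shTR1/shSep15 and control cells. Aqp8, a water channel that also passes urea and ammonia, was at 0.44 (adjusted p = 0.637 from limma) and Aqp1, a water channel that red blood cells carry beside urea transporter B, at −0.24 (0.944), which turned to 0.03 without control replicate 1. The 10 other members of the progestin and adipoQ receptor family had a median of 0.02. Mmd2, the closest relative of Mmd, read 5.11 ± 0.12 in shTR1/shSep15 cells and 5.03 ± 0.25 in control cells (SD, 4 arrays each). Paqr3, a Golgi protein that holds Raf kinase, was at −0.56 (adjusted p = 0.775 from limma) and Paqr4 at 0.29 (0.887), and Paqr4 turned to −0.10 without control replicate 2. No gene of the 5 lists passed in shTR1 against control (0.18% of all probe sets) or in shTR1/shSep15 against shTR1 cells (0.0733%). In shTR1/shSep15 against shSep15 cells (2.66%) 1 passed, which is near the share of all probe sets. It was Aebp1, a secreted carboxypeptidase-like protein that is named here after its value was seen. It read 7.07, 7.46, 7.01 and 7.02 in shTR1/shSep15 cells and 6.46, 6.25, 6.05 and 5.88 in shSep15 cells, and rose by 0.98 (adjusted p = 0.00717 from limma).

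**Figure D5:**
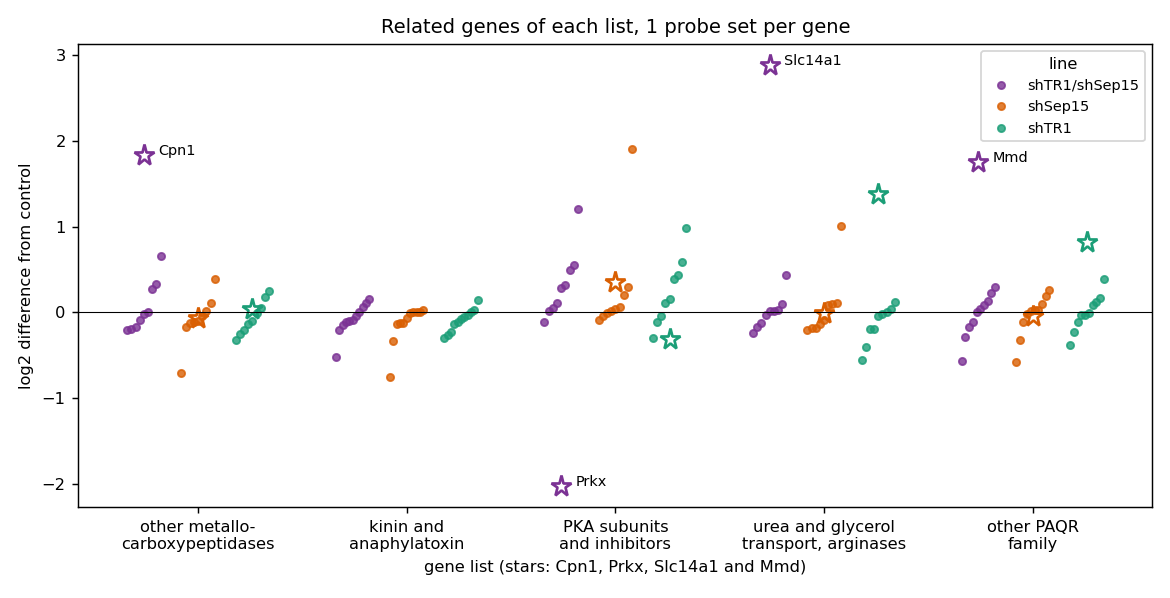
Log2 difference from control (vertical axis) of each measured gene of the 5 pathway lists in shTR1/shSep15, shSep15 and shTR1 cells. Circles are list genes and stars are Cpn1, Prkx, Slc14a1 and Mmd. The circle at 1.90 in the kinase list is Prkacb in shSep15 cells. The 4 purple stars lie outside the range of their lists, and these 4 genes were picked on this difference.

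Cpn1 is known from liver, Slc14a1 from red blood cells and Mmd from macrophages, so the markers of these cells were read beside them. In bulk samples, fewer cells of a type and less RNA per cell cannot be told apart. Of 8 hepatocyte markers 6 were measured, none with a mean above 6, and their mean signal was 4.19 to 4.67 in shTR1/shSep15 arrays and 3.97 to 4.57 in control arrays. Alb was at 3.42 to 3.66 in shTR1/shSep15 cells and 3.39 to 3.75 in control cells. Of 8 erythroid markers 6 were measured, none with a mean above 6, at 4.03 to 4.44 in shTR1/shSep15 arrays and 3.85 to 4.37 in control arrays. The 8 macrophage and leukocyte markers averaged 5.09 to 5.36 in shTR1/shSep15 arrays and 4.69 to 5.17 in control arrays. Ptprc was at 2.74 to 3.09 in shTR1/shSep15 cells and 2.42 to 3.08 in control cells, while Cd68 was at 6.55 to 6.97 in shTR1/shSep15 cells and 4.69 to 6.53 in control cells. The part of the macrophage and leukocyte markers in the Mmd values was not tested. The 6 endothelial markers averaged 3.67 to 3.83 in shTR1/shSep15 arrays and 3.59 to 4.10 in control arrays, and the 8 mesenchymal markers 8.56 to 9.12 and 7.88 to 8.90. The 10 epithelial markers averaged 5.01 to 5.34 in shTR1/shSep15 arrays and 4.80 to 5.39 in control arrays. No marker of the 6 lists passed the limma test in shTR1/shSep15 against control. Before adjustment, 2 of the 8 macrophage and leukocyte markers and 1 of the 8 mesenchymal markers were past 0.05, all upward. None of the other lists had such a marker, and 8.14% of all probe sets were past 0.05 in either direction. The shSep15 arrays averaged 4.26 to 4.55 for the epithelial list, 4.64 to 4.83 for the macrophage and leukocyte list and 7.84 to 8.20 for the mesenchymal list, each range below that of shTR1/shSep15 cells. The shTR1 arrays averaged 4.69 to 5.455, 4.72 to 5.40 and 7.73 to 8.74 for these lists. Against control, 5 of the 8 mesenchymal markers were higher in shSep15 cells (median 0.05), where 44.2% of all probe sets were. In shTR1 cells 7 were lower (median −0.37), and 43.1% of all probe sets were higher. In shTR1/shSep15 against shSep15 cells 9 of the 10 epithelial markers were higher, where 54.1% of all probe sets were. Of these markers 2 passed, the keratins Krt18 and Krt20 (smallest adjusted p = 0.000788 from limma). Also passing upward were 1 macrophage and leukocyte marker (Cd14, adjusted p = 0.00212 from limma) and 1 mesenchymal marker (Col3a1, 0.038), beside 2.66% of all probe sets. In shSep15 against control all 10 epithelial markers were lower and 2 passed, beside 1.97% of all probe sets. There 1 mesenchymal marker (adjusted p = 0.0307 from limma) and 1 macrophage and leukocyte marker (0.0238) also passed downward. The part of these markers in the differences of the 4 genes from shSep15 cells was not tested.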

How the data were processed

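Total RNA of 16 CT26 preparations (4 lines of 4) was hybridised to Affymetrix mouse genome arrays. The authors converted the probe values with RMA (version not given in the sources used here) and deposited the resulting log2 signals, corrected for background, for every probe set. The build behind the probe annotation is not given in the sources used here, and the study compared the lines by an analysis of variance. The table has 45101 probe sets. The 64 control probe sets were left out, and of the 45037 tested 34945 carry 1 symbol, 932 several and 9160 none (symbols updated through the gene number for 34741).

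limma 3.58.1 in R 4.3.3 fitted a mean per line to every probe set over all 16 arrays (12 residual and 2.58 prior degrees of freedom), with Benjamini-Hochberg adjustment over all 45037 and a threshold of 0.05. No filter on low signals was applied, so all 10 probe sets of the 4 genes entered. The fit was tested on simulated data. Grouping followed the labels. The 4 genes, the lists, the neighbours and the alternatives were chosen with earlier results of these data known, so the 4 genes and those most like them carry no test. The genes named are the 3 most correlated with each, 5 measured protein-coding neighbours on each side, list genes that passed against control or else the 2 of each list with the largest difference, and the targeted genes. Named outside this rule, after values were seen, were Aebp1, Cpn2 and Mmd2 and the single markers given. Alternatives were an intensity trend, no moderation, probe sets with a mean above 6, the compared lines alone, median centring, quantile normalization, array weights, a block for the replicate number, leaving out each array, shTR1 replicates 2 and 4 left out, and the mean of the probe sets of a gene. Arrays of a line correlated at 0.939 to 0.997 and no 2 were identical. The number of arrays limits the precision. Figures used matplotlib 3.10.9 in Python 3.11.15.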

Additional observations from a re-analysis of the deposited data

Results flagged for a closer look

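At 2 probe sets of Prkx all shTR1/shSep15 arrays lay below the shTR1 mean while all shSep15 arrays lay above the control mean, so that the Sep15 hairpin went with a lower signal beside the TR1 hairpin and a higher one without it. The 2 effects differed by −2.08 at 1424286_at and by −1.60 at 1451299_at on the log2 scale. At 1440576_at of Cpn1 they differed by 0.30 in the opposite sense, with all shTR1/shSep15 arrays above the shTR1 mean and all shSep15 arrays below the control mean. These differences were not tested, since the genes were picked on these arrays.

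In 2 of 40 groups of 4 arrays 1 array stood apart, its gap to the nearest other taking more of the range of the group than Dixon's critical value allows, and chance flags about 1 in 20 groups. They were shSep15 replicate 1 at 1451299_at of Prkx (7.83, ratio 0.846) and shTR1/shSep15 replicate 4 at 1448640_at of Slc14a1 (5.42, ratio 0.912).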

How the results depend on the processing

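The log2 differences of shTR1/shSep15 from control kept their direction in all alternatives run. As single arrays were left out they ran from 1.67 to 1.97 for Cpn1, −2.21 to −1.78 for Prkx, 2.75 to 2.98 for Slc14a1 and 1.38 to 1.98 for Mmd. With the mean of the probe sets in place of the brightest, Cpn1 was at 0.87 and Prkx at −1.39, through the probe sets of smaller difference. Without shTR1 replicates 2 and 4 the shTR1 difference of Prkx was −0.74. Leave-one-out ranges of the other differences were −0.13 to 0.16 (Cpn1), −0.50 to −0.06 (Prkx), 0.75 to 2.05 (Slc14a1) and 0.45 to 1.06 (Mmd) for shTR1, and −0.23 to 0.04, 0.17 to 0.60, −0.13 to 0.07 and −0.42 to 0.19 for shSep15. Of the 11 list genes recomputed in shTR1/shSep15 against control, 3 changed sign with 1 array left out: Bdkrb2 (−0.85 to 0.20) and Paqr4 (−0.10 to 0.52) without control replicate 2, and Aqp1 (−0.38 to 0.031) without control replicate 1.

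The number of probe sets past the threshold moved more, and the cause was not tested. For shTR1/shSep15 against control it was 11 (2 higher), and 18 with an intensity trend, 3 with a mean above 6, 68 with array weights, 27 without shTR1 replicates 2 and 4, 24 with the compared lines alone and 8 to 24 with single arrays left out. Quantile normalization gave 14 (5 higher). For shSep15 against control it was 885, and 556 without moderation, 2616 with weights, 345 with the compared lines alone and 437 to 1176 with single arrays left out. For shTR1 against control it was 81 (59 higher), and 48 with a trend, 53 without moderation, 222 with weights, 20 without shTR1 replicates 2 and 4, 4 with the compared lines alone and 25 to 211 with single arrays left out. Quantile normalization gave 76 (45 higher). For shTR1/shSep15 against shSep15 it was 1196, and 738 without moderation, 5525 with weights, 3753 with the compared lines alone and 613 to 2239 with single arrays left out. For shTR1/shSep15 against shTR1 it was 33, and 9 without moderation, 15 with a mean above 6, 18 with median centring, 1084 with weights, 12 without shTR1 replicates 2 and 4 and 5 to 250 with single arrays left out. The call of Dgke was lost in 16 of 24 alternatives, among them the replicate block.

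Nothing states what the replicate numbers stand for. Deviations from the line means of same-numbered arrays correlated at a median of −0.05 over 24 pairs, with 8 over 0.1, against 0.03 over 72 pairs of different numbers, so the numbers were not taken as pairs. With the replicate number as a block, 11 probe sets passed in shTR1/shSep15 against control and 15 in shTR1/shSep15 against shTR1.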
